A study of Rattus norvegicus with 65 samples.

Results

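Collagen-rich and collagen-poor tumors were set apart among 65 rat mammary tumors by a collagen score, the mean log2 expression of Col1a1, Col1a2 and Col3a1. These genes encode both chains of type I collagen and the chain of type III collagen. The 20 arrays with the highest score were called collagen-rich and the 20 with the lowest collagen-poor, so that 40 of 65 arrays were compared, and the other 25 are called middle arrays. The classes were chosen by measured values of these 3 genes and are not conditions that the labels give. The tests on other genes therefore measure how those genes go with the score.

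The tumors came from a study in which rat mammary tumors first induced by a carcinogen were passed serially through syngeneic hosts, that is, hosts of matching genetic background. Each of 11 lines, called series after the labels (10, 13, 17, 19, 25L, 25R, 32, 33, 34, 36 and 42), gave a primary tumor and transplants 1 to 5, with 1 Affymetrix array per tumor, except that no transplant 5 array of series 10 was analysed here. No strain, age, carcinogen or per-tumor invasive behaviour stands in the labels, and both classes share the induction and transplantation history of their lines. The arrays of a line descend from 1 first tumor and are not independent lines, so p-values measure the spread between arrays within lines.

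Type I and type III collagen form the fibrils of connective tissue. Fibroblasts secrete them as procollagens, which are hydroxylated and folded in the endoplasmic reticulum, trimmed outside the cell and crosslinked by lysyl oxidases. Small leucine-rich proteoglycans such as decorin and lumican bind the fibrils, and cathepsin K and metalloproteinases cut them. In a mammary tumor the epithelial cells carry keratins and Epcam, an adhesion protein of epithelial cells, while fibroblasts, vessels and macrophages make up the stroma. A tumor cell that has lost its epithelial program can itself express collagens. In these bulk samples, fewer cells of a type and less RNA per cell cannot be told apart.

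All expression values below are log2 intensities after each array was scaled to a common median, with a floor of 5.31 under which values have no order. The score ran from 6.95 in series 10 transplant 2 to 13.35 in series 32 transplant 5. It averaged 12.59 ± 0.40 (SD, n = 20 arrays) in the collagen-rich class and 9.61 ± 1.01 (SD, n = 20 arrays) in the collagen-poor class, a difference of 2.98 in log2 or 7.87-fold, given as a description because the score chose the classes. At the upper boundary, series 17 primary was just inside at 12.02 and series 32 transplant 1 just outside at 11.93. At the lower boundary, series 33 transplant 2 was just inside at 10.87 and series 19 transplant 5 just outside at 10.96. The boundaries therefore fall in a continuous range of scores.

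Each score gene was read from its brightest probe set. Col1a1 ranged from 6.21 to 10.70 (median 9.65) in collagen-poor arrays and from 11.80 to 13.20 (median 12.53) in collagen-rich arrays. Col1a2 ranged from 6.93 to 11.65 (median 9.53) and from 11.55 to 13.08 (median 12.50) in the same classes. Col3a1 ranged from 7.72 to 11.47 (median 10.42) and from 12.11 to 13.82 (median 12.79). Only Col1a2 overlapped between the classes, through the collagen-poor array of series 42. The second probe sets of Col1a1 and Col1a2, which the score did not use, differed by 3.09 and 2.97 between the class means, against 3.16 and 3.15 for the probe sets used.

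Series 42 differed from the other lines in the balance of both type I collagen chains. There Col1a2 exceeded Col1a1 by 1.27 ± 0.57 (SD, n = 6 arrays), with single arrays from 0.54 to 2.15. In the other 10 series the mean of Col1a2 minus Col1a1 lay between -0.30 and -0.00. Col1a2 lies on chromosome 4 of the rat assembly GRCr8, Col1a1 on chromosome 10 and Col3a1 on chromosome 9. A score from Col1a1 and Col3a1 alone changed the class of 4 arrays. In series 42 transplant 1 left the collagen-rich class and transplant 3 entered the collagen-poor class. Series 33 transplant 2 left the collagen-poor class and series 25L transplant 3 entered the collagen-rich class under that score.

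**Figure D1:**
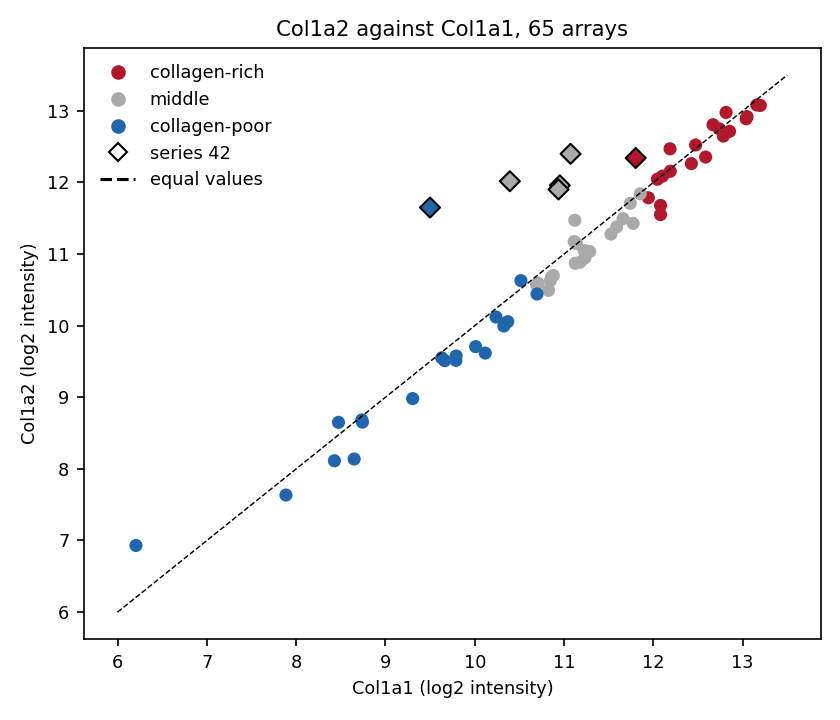
Col1a2 (vertical axis) against Col1a1 (horizontal axis), both in log2 intensity, for 65 arrays coloured by class, with series 42 as diamonds and a dashed line of equal values. The 6 diamonds lie above the line, by 0.54 to 2.15, while the means of the other series lie near it.

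Both classes were spread unevenly over lines. Series 17 and 36 each gave 4 collagen-rich arrays, series 32 and 34 each gave 3, series 25L gave 2, and series 10, 25R, 33 and 42 each gave 1. Series 19 gave 5 collagen-poor arrays, series 33 gave 4, series 13 gave 3, series 10, 25R and 32 each gave 2, and series 25L and 42 each gave 1. Series 17, 34 and 36 held no collagen-poor array and series 13 and 19 no collagen-rich one. Only 6 series held both classes, with 9 collagen-rich and 12 collagen-poor arrays among them, so the remaining 11 collagen-rich and 8 collagen-poor arrays came from lines of 1 class.

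By generation, the collagen-rich class held 3 primary tumors, 2 of transplant 1, 2 of transplant 2, 4 of transplant 3, 5 of transplant 4 and 4 of transplant 5. The collagen-poor class held 5 primary tumors, 5 of transplant 1, 4 of transplant 2, 3 of transplant 3, 1 of transplant 4 and 2 of transplant 5. Transplants 3 to 5 thus gave 13 of 20 collagen-rich and 6 of 20 collagen-poor arrays, out of 32 such arrays in all. Single lines took different courses. Series 32 went from 8.38 in its primary tumor to 12.86, 13.05 and 13.35 in transplants 3 to 5, whereas series 10 started at 13.01 and was at 8.95 and 6.95 in transplants 1 and 2.

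**Figure D2:**
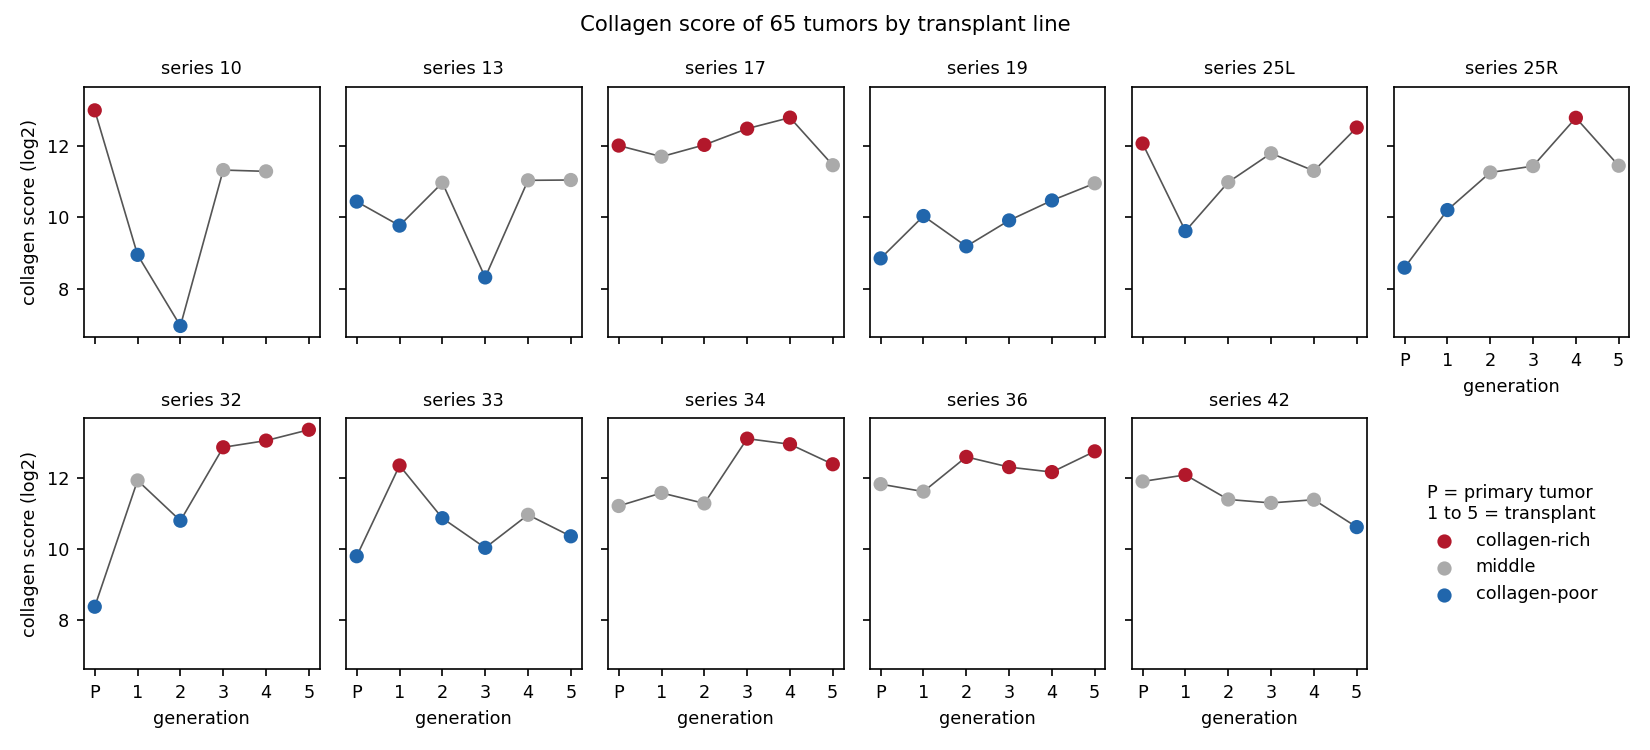
Collagen score (log2, vertical axis) by generation (P for primary tumor, 1 to 5 for the transplants) in each of 11 series, with points coloured by class. Series 32 rises from 8.38 to 13.35, series 10 drops from 13.01 to 6.95 by transplant 2, and series 17, 34 and 36 hold no collagen-poor tumor.

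Technical measures overlapped between the classes. The median intensity before scaling ran from 96.1 to 172 in collagen-rich and from 143 to 176 in collagen-poor arrays. The lowest, 96.1, was that of series 32 transplant 5, the array with the highest score, which had 14.5% of its probe sets at the floor. The ratio of 3' to 5' Gapdh probe sets, a sign of RNA quality, ran from -0.18 to 0.26 in collagen-rich and from -0.08 to 0.28 in collagen-poor arrays, in log2. The same ratio for beta-actin ran from 0.09 to 0.52 (median 0.26) and from 0.20 to 0.50 (median 0.34), and it was not used as a covariate. The mean of 22 measured skeletal muscle genes ran from 5.94 to 7.37 and from 6.05 to 7.81 in the same classes. With the Gapdh ratio as a covariate 2142 genes were called, with the muscle mean as a covariate 2148, and without 5 arrays rich in muscle genes 2146, against the 2128 reported next.

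Across the genome the classes differed in many genes. With limma, fitted to all 65 arrays with class and series as factors and adjusted by Benjamini-Hochberg over 7805 genes (the 3 score genes left out), 2128 genes passed an adjusted p of 0.05, which is 27.3% of those tested. Of these, 1035 were higher in collagen-rich tumors (13.3%) and 1093 lower (14.0%). At least 2-fold changes numbered 161 up and 112 down, and the median difference over all tested genes was -0.02. Counts for gene lists below are to be read against these shares. They cover only members past an expression filter, a mean of 6.68 over all arrays. A gene dim in collagen-poor arrays could pass it through the others, as did Sfrp4, Arpp21, Dpt, Lox, Ctsk and Cfd below. Without rescaling of the arrays 36.1% of the called genes were higher, against 48.6% with it.

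The direction held unequally over lines. Among the genes called higher, 424 (41.0%) were higher in all 6 series that hold both classes, while 156 (14.3%) of those called lower were lower in all 6. These series also entered the fit that made the calls, so both shares describe agreement and do not test it. With series 32 left out, 579 genes were called higher and 428 lower. Where each of the 6 series gave only 1 value, 176 genes were called higher and 9 lower. Series 32, 34 and 42 hold all arrays with Epcam under 8, and without them 379 genes were higher and 147 lower. That choice was made after the values were seen.

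Other collagens rose with the score genes. Of 9 tested chains of non-fibrillar stromal collagens, 7 were higher and none lower, with a median difference of 1.99. Col6a1, a chain of the microfibrillar type VI collagen, ranged from 7.17 to 9.40 (median 8.28) in collagen-poor and from 9.63 to 11.85 (median 10.66) in collagen-rich arrays. These ranges did not overlap, and the difference was 2.27 ± 0.20 (SE; limma, adjusted p = 1.07e-12). Col6a2 differed by 2.21, Col6a3 by 2.25, Col12a1, a fibril-associated collagen, by 2.36, Col8a1 by 1.99 and Col15a1 by 1.60. Col14a1, another fibril-associated collagen, ranged from 5.68 to 10.85 and from 6.22 to 10.81 and was not called (0.32 ± 0.26, SE; limma, adjusted p = 0.395). Without series 32, 34 and 42 Col14a1 was called, at 0.93 (limma, adjusted p = 0.0068), so its missing call depended on those lines.

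Among fibrillar collagens outside the score, 6 were tested, 4 were higher and 1 was lower. Col5a1, the type V chain that sits inside type I fibrils, ranged from 6.74 to 8.54 (median 7.79) in collagen-poor and from 9.39 to 11.80 (median 10.70) in collagen-rich arrays. Every collagen-rich array lay above every collagen-poor one, and the difference of 2.70 ± 0.22 (SE) amounted to 6.51-fold (limma, adjusted p = 3.23e-14). Col5a2 differed by 1.50, Col5a3 by 2.30 and Col27a1 by 1.06. Col2a1, the collagen of cartilage, went the other way, from a median of 10.04 in collagen-poor to 6.75 in collagen-rich arrays. Its ranges of 7.16 to 11.41 and 5.54 to 10.81 overlapped widely, and its difference of -1.78 ± 0.50 (SE; limma, adjusted p = 0.00614) lost the call without series 32 (limma, adjusted p = 0.0918).

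Complete separation of the classes was rare. Of 7805 genes, 3 (0.0384%) had every collagen-rich array above every collagen-poor one, and none (0%) the reverse. Besides Col5a1 and Col6a1 the third was Tmem119, a membrane protein named here after its values were seen, with 7.17 to 10.93 against 6.14 to 7.09.

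Of 6 small proteoglycans 4 were higher and none lower, with a median difference of 1.76. Dcn, decorin, ranged from 5.72 to 11.76 (median 8.70) in collagen-poor and from 9.28 to 13.69 (median 10.97) in collagen-rich arrays. Lum, lumican, ranged from 5.31 to 11.41 (median 7.91) and from 9.11 to 13.13 (median 10.69). Both genes overlapped between the classes but were higher in 6 of 6 series, by 2.89 ± 0.41 and 2.85 ± 0.42 (SE; limma, adjusted p = 3.03e-07 and 5.20e-07). Bgn, biglycan, differed by 2.13 and Vcan, the large proteoglycan versican kept in the same list, by 1.38. Fmod, fibromodulin, was not called at -0.43 ± 0.27 (SE; limma, adjusted p = 0.233).

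Genes that process collagen rose in part. Of 18 tested, 12 were higher, none lower and 6 not called, with a median difference of 0.56. Lox, lysyl oxidase, which acts outside the cell, ranged from 5.31 to 8.73 (median 6.34) in collagen-poor and from 7.65 to 10.91 (median 9.31) in collagen-rich arrays, a difference of 2.43 ± 0.31 (SE; limma, adjusted p = 2.78e-08). Pcolce, the enhancer of procollagen C-proteinase, differed by 2.25, Loxl1, a second crosslinking oxidase, by 2.13, and Bmp1, the C-proteinase itself, by 0.90. Inside the cell, Serpinh1, the collagen chaperone of the endoplasmic reticulum, differed by 0.81 and Plod2, a lysyl hydroxylase, by 0.99. The prolyl hydroxylase chain P4ha1 was at 0.02 and the lysyl hydroxylase Plod1 at -0.29, and neither passed the test. The general secretory pathway moved less, with 11 of 41 genes higher, none lower and a median of 0.14. Its coat gene Sec24d differed by 0.69 and its transcription factor Creb3l1 by 0.70.

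Matrix glycoproteins and elastic fiber genes were mostly higher, 21 of 26 with none lower and a median of 1.19. Fn1, fibronectin, ranged from 6.40 to 11.41 (median 8.85) and from 9.97 to 13.78 (median 12.25) in collagen-poor and collagen-rich arrays, with a difference of 2.53 ± 0.31 (SE; limma, adjusted p = 1.14e-08). Fbn1, the fibrillin of elastic microfibrils, differed by 2.40, Postn, periostin, by 2.26, and Sparc, a collagen-binding glycoprotein, by 1.52. Ccn2, a matricellular gene often used as a readout of TGF-beta, was at medians of 10.05 and 10.17 and was not called (-0.12 ± 0.26, SE; limma, adjusted p = 0.762).

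Basement membrane genes split. Of 14, 6 were higher and 2 lower. Lama2 and Nid1, a laminin chain and its binding partner nidogen, were higher by 1.32 and 1.12. The laminin chain Lama5 and Agrn, agrin, were lower, at -0.86 and -0.62. Col4a1, the main collagen of basement membranes, had medians of 10.86 and 10.81 and was not called (0.22 ± 0.21, SE; limma, adjusted p = 0.465). Neither lower call was made without series 32, when 5 genes of the list were higher and none lower, and Agrn was not called without series 34 either.

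The 12 largest rises that kept their direction in at least 5 of 6 series were those of Sfrp4, Dpt, Dcn, Lum, Mfap4, Arpp21, Lgals1, Tnc, Olfml3, Col5a1, Ccdc80 and Cfd, between 3.10 and 2.64 in log2. Most encode secreted proteins of connective tissue. Sfrp4, a secreted Wnt antagonist, was at the floor in 13 of 20 collagen-poor arrays and reached 7.25 there, and it ranged from 5.31 to 11.63 (median 8.60) in collagen-rich arrays. Its difference was 3.10 ± 0.45 (SE; limma, adjusted p = 3.81e-07), a fitted value that takes arrays of either class at the floor as 5.31. Dpt, dermatopontin of the skin matrix, ranged from 5.31 to 9.49 (median 6.62) and from 5.66 to 11.60 (median 9.59), a difference of 2.92. Tnc, tenascin C, differed by 2.73 with 0.58 in series 33 and 6.30 in series 32 as its extremes over lines.

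Arpp21, a phosphoprotein known best from neurons, stood out by its place in this list. It was at the floor in 14 of 20 collagen-poor arrays and ranged from 6.98 to 9.65 (median 8.60) in collagen-rich arrays, a difference of 2.75 ± 0.22 (SE; limma, adjusted p = 3.23e-14). Its name rests on 1 probe set and the platform's annotation, and the probe sequences were not analysed here. All 12 genes remained past the threshold in each alternative in which they were tested.

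**Figure D3:**
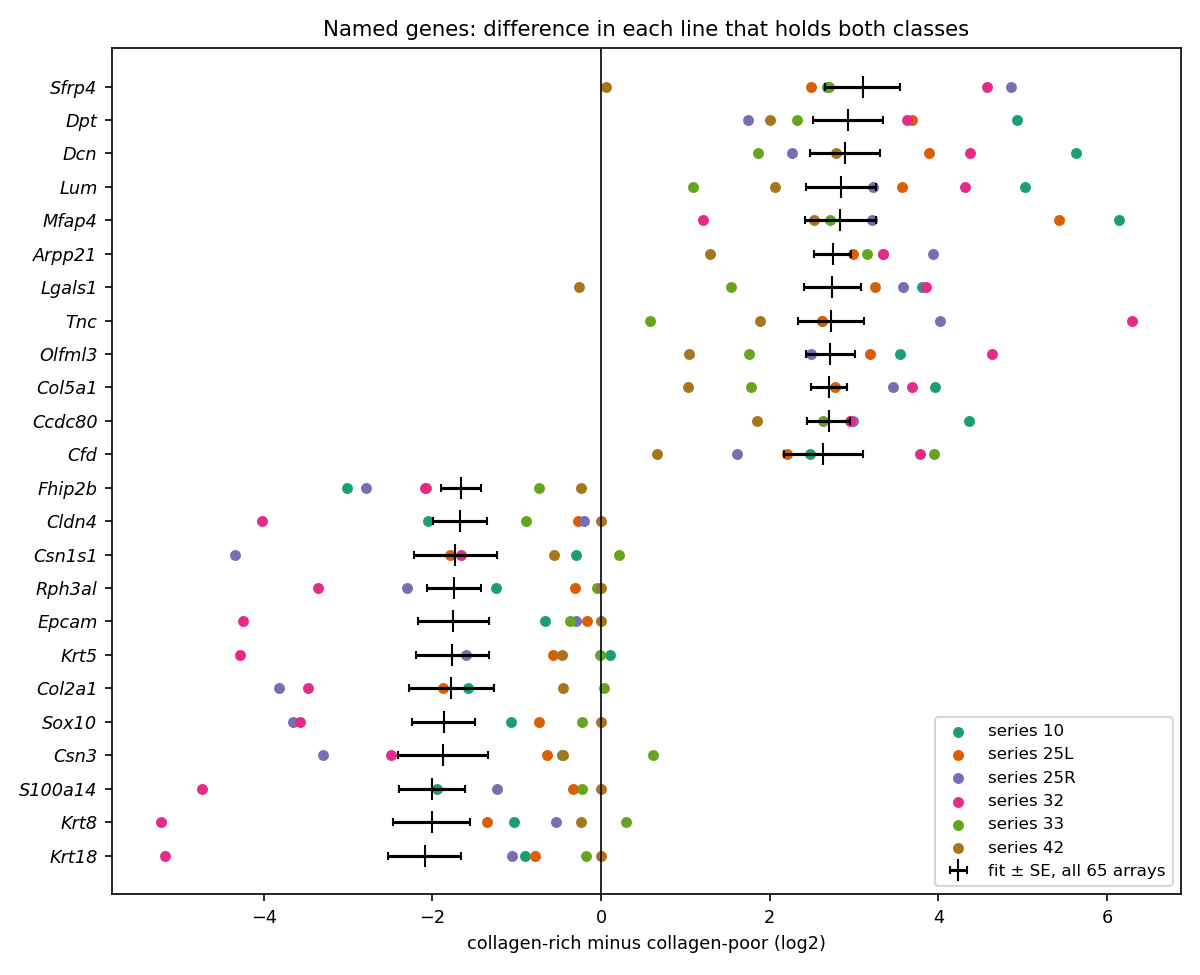
Difference between collagen-rich and collagen-poor arrays (log2, horizontal axis) for 24 named genes, with 1 coloured point for each of the 6 series that hold both classes and a black bar for the fit on 65 arrays ± SE. The 12 genes at the top lie above 0 in each of 6 series except Lgals1 in series 42, and for most of the 12 genes at the bottom series 32 holds the most negative or nearly the most negative point.

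Likeness to the score was measured as Pearson's r over 65 arrays after the mean of each series was taken off both. The arrays share lines, so r is a description. Col5a1 and Col6a1 came first at 0.92 each, followed by Col6a2 at 0.89, Lum and Fbn1 at 0.88, Col6a3, Lgals1 and Postn at 0.87, and Loxl1 and Dcn at 0.86. Type VI collagen chains thus took 3 of the 10 places.

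Of 27 measured fibroblast markers 17 passed the expression filter and were tested. Of these 13 were higher and none lower, with a median of 1.17. Thy1, a surface glycoprotein of fibroblasts, ranged from 6.52 to 8.34 (median 7.22) and from 7.74 to 12.58 (median 9.30) in collagen-poor and collagen-rich arrays. The differences were 2.30 ± 0.26 for Thy1, 2.14 ± 0.30 for Pdgfra and 1.93 ± 0.26 for Pdgfrb, both receptors for platelet-derived growth factor (SE; limma, adjusted p = 1.93e-09, 1.93e-07 and 6.72e-08). Fap, a surface protease of activated fibroblasts, differed by 1.49 and Ddr2, a receptor for fibrillar collagen, by 1.18. The chemokine Cxcl12 was not called at 0.17. S100a4 and Vim, which tumor cells without epithelial traits also express, were higher by 2.54 and 1.17. S100a4 reached 12.76 and Vim 13.02 in collagen-poor arrays, so the classes overlapped. Without series 32, 34 and 42 there were again 13 higher fibroblast markers and none lower.

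Contractile genes showed no common change between the classes. Of 14 smooth muscle and myofibroblast genes, 4 were higher and 1 lower, and the median was -0.00. In the 25 middle arrays 11 of 14 had a positive slope on the score within series, with a median of 0.55, and none was called. Acta2, smooth muscle actin and the usual marker of myofibroblasts, ranged from 8.54 to 12.53 (median 10.75) in collagen-poor and from 9.16 to 11.71 (median 9.83) in collagen-rich arrays. The ranges overlapped almost fully and the difference was -0.11 ± 0.28 (SE; limma, adjusted p = 0.81). The sign of the Acta2 difference depended on the lines. It was 0.22 without series 32 and 0.26 without series 32, 34 and 42, not called in either fit (limma, adjusted p = 0.665 and 0.697). Tagln, transgelin, was at -0.37 ± 0.42 (SE; limma, adjusted p = 0.556). The called rises were small, with Cnn2 at 0.39, Smtn at 0.39, Cald1 at 0.36 and Itga8 at 0.49. Smtn and Cald1 were not called without series 32, nor Itga8 without series 10 or without series 25R. Mylk, the myosin light chain kinase, was the lower gene at -1.11 (limma, adjusted p = 0.0353). It lost the call in 12 of 33 alternatives, among them the fit with generation (-0.66) and the fits without series 10, 19, 25R, 32, 34 or 36, and it was at -0.61 without series 32 (limma, adjusted p = 0.359). Myoepithelial cells of the mammary gland also express these contractile genes, and a share of each source was not tested. Of 5 pericyte genes only Anpep was called (1.26), a peptidase also found on fibroblasts.

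**Figure D4:**
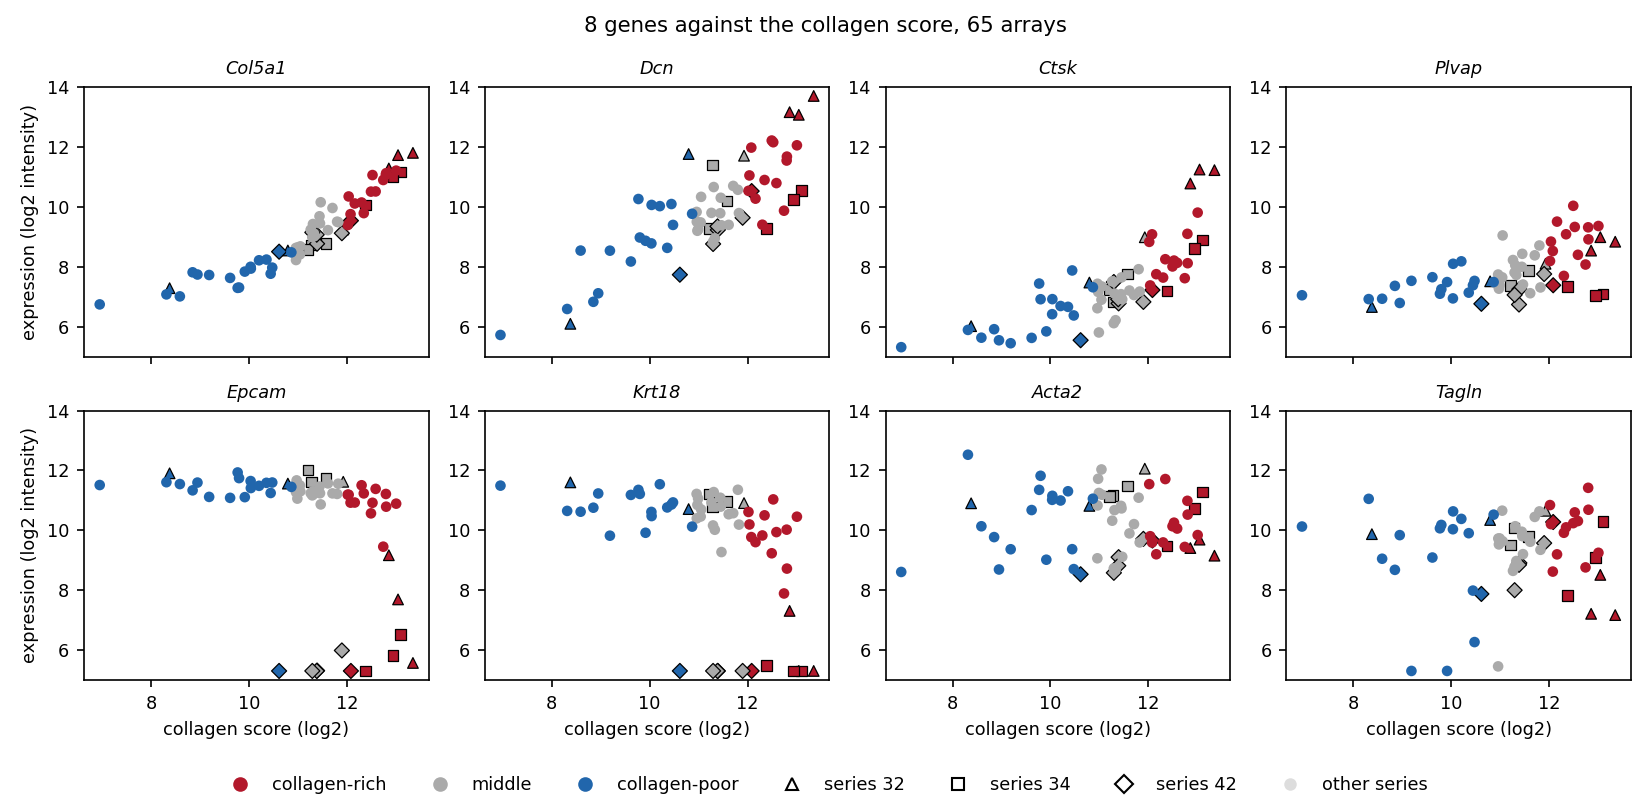
Expression (log2 intensity, vertical axes) of 8 genes against the collagen score (log2, horizontal axis) in 65 arrays, coloured by class, with series 32, 34 and 42 marked by shape. Col5a1, Dcn, Ctsk and Plvap go up with the score, Acta2 and Tagln do not, and the values of Epcam and Krt18 near the floor lie in the 3 marked series.

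Vessel genes rose. Of 21 measured endothelial genes 13 were tested, and 10 of these were higher and none lower, with a median of 0.72. Plvap, a protein of the openings in thin capillary walls, ranged from 6.65 to 8.18 (median 7.30) and from 7.03 to 10.03 (median 8.68), a difference of 1.51 ± 0.20 (SE; limma, adjusted p = 7.42e-08). Kdr, the main receptor for vascular endothelial growth factor, differed by 1.10, Emcn, an endothelial sialomucin, by 1.00 and Eng, a co-receptor of the TGF-beta family, by 0.72. The highest Plvap value, 10.03, was that of series 17 transplant 3, whereas the collagen-rich arrays of series 34 and 42 were between 7.03 and 7.38. Flt1 (0.13) and Icam2 (-0.10) were not called.

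Macrophage genes rose as well, 12 of 16 with 1 lower and a median of 0.75. C1qa, a chain of complement C1q, ranged from 7.87 to 10.34 (median 9.24) and from 9.41 to 11.47 (median 10.23), a difference of 1.01 ± 0.18 (SE; limma, adjusted p = 2.54e-05). Csf1r, the receptor that macrophages need for survival, differed by 0.92 and Lyz2, macrophage lysozyme, by 1.12. The lower gene was Cd14, a co-receptor for bacterial lipopolysaccharide, at -0.83, and it was lower in 3 of 6 series and higher in 3. Cd14 was not called when series 32 was left out, and 11 macrophage genes were then higher. T and NK cell genes gave 3 of 11 higher, none of 6 mast cell genes and none of 4 red cell genes passed, and neither did any of 6 skeletal muscle genes.

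Antigen presentation genes separated by class of MHC. Of 16, 9 were higher and 3 lower. RT1-Da, a class II chain, ranged from 9.33 to 11.62 (median 10.67) and from 10.86 to 12.40 (median 11.59), a difference of 1.10 ± 0.22 (SE; limma, adjusted p = 0.000173). RT1-Ba, RT1-Bb and RT1-Db1, further class II chains, differed by 1.14, 1.13 and 1.00, and Cd74, the class II invariant chain, by 1.02. B2m, the light chain of class I, was at 12.67 and 12.66 and was not called (0.04). The immunoproteasome subunits Psmb9 and Psmb8 were lower at -0.46 and -0.35. Psmb9 lost the call without series 25R, 32 or 34, and Psmb8 without series 10, 25L, 25R, 33, 34 or 36. Interferon response genes, a list that also holds both immunoproteasome subunits, gave 1 higher and 5 lower of 15, among them Oas1a, an antiviral synthetase, at -0.96. Without series 32, 34 and 42, 6 presentation genes were higher and 1 lower, and 1 interferon gene was lower.

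Enzymes that cut matrix and their inhibitors rose together, 15 of 22 with 1 lower and a median of 0.72. Ctsk, cathepsin K, which cleaves fibrillar collagen, ranged from 5.31 to 7.87 (median 6.19) and from 7.19 to 11.24 (median 8.23), a difference of 2.57 ± 0.27 (SE; limma, adjusted p = 1.76e-10). Its values of 10.77 to 11.24 in 3 arrays of series 32 lay above the next highest, 9.80 in series 10 primary. Mmp2, a gelatinase, differed by 2.08, Mmp14, the membrane protease that activates it, by 0.98, and the inhibitors Timp1 and Timp2 by 1.63 and 1.43. Adamts1 was lower at -0.96, and that call was lost without series 32, when 13 genes of the list were higher and none lower. Mmp3, a stromelysin, was not called at 0.27.

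Among growth factors and their partners in stroma, 8 of 21 were higher and none lower, with a median of 0.18. Angptl2, a secreted angiopoietin-like protein, differed by 2.06, Igfbp6, a binding protein of insulin-like growth factors, by 1.85, Ccl2, a chemokine for monocytes, by 1.58, and Igf1, insulin-like growth factor 1, by 1.23. The TGF-beta list, 31 genes, gave 7 higher and 4 lower with a median of 0.09. Tgfb1, the ligand, was higher by 0.86 ± 0.22 (SE; limma, adjusted p = 0.0023), Id3, a target of the BMP branch, by 1.83, and Inhbb, an activin chain, was lower at -1.47, a call lost without series 32. Without series 32, 34 and 42 only 1 gene of this list was called, and Tgfb1 was not (limma, adjusted p = 0.266).

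Of 11 collagen receptor genes 3 were higher, 2 lower and 6 not called. Ddr2, the discoidin receptor of mesenchymal cells, was higher by 1.18, and Ddr1, that of epithelial cells, was lower at -0.88 ± 0.18 (SE; limma, adjusted p = 0.000153). Sdc4, a heparan sulfate proteoglycan of the cell surface, was lower at -0.98 and the integrin chain Itgb1 higher by 0.48. Without series 32 Ddr1 differed by -0.53 and Sdc4 by -0.58, both still called, while Itgb1 was not called (0.32; limma, adjusted p = 0.101). Ddr2 was at 1.08 in that fit.

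Of 10 listed transcription factors of epithelial-mesenchymal transition 7 were measured, and the 3 that passed the expression filter were higher. The filter asked for a mean of 6.68 over all arrays, so a gene dim in collagen-poor arrays could pass through the others. Snai1 had a collagen-poor median below it. The count of 3 is therefore no result about the list, and 1 of the 3 had a positive slope in the middle arrays. Snai1, a repressor of epithelial genes, ranged from 6.03 to 7.29 (median 6.48) and from 7.15 to 9.55 (median 7.96), a difference of 1.29 ± 0.17 (SE; limma, adjusted p = 4.52e-08). It was higher in 6 of 6 series, and its highest values, 8.72 to 9.55, lay in series 32 and 34. Tcf4 differed by 0.91 and Zeb1 by 0.34. Zeb1 was not called without series 32 (limma, adjusted p = 0.142), whereas Snai1 was called also without series 32, 34 and 42, at 0.88.

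Epithelial genes fell, with the largest falls in a part of the collagen-rich tumors. Of 18 luminal genes 13 were lower and none higher (median -1.29), of 15 junction genes 12 were lower and none higher (median -0.88), and of 8 basal genes 5 were lower and 1 higher. Epcam ranged from 5.31 to 11.93 (median 11.53) in collagen-poor and from 5.31 to 11.51 (median 10.84) in collagen-rich arrays, a difference of -1.75 ± 0.42 (SE; limma, adjusted p = 0.00126). Krt18, a simple keratin of luminal cells, ranged from 5.31 to 11.60 (median 10.76) and from 5.31 to 11.04 (median 9.42), a difference of -2.09 ± 0.43 (SE; limma, adjusted p = 0.000198). The ranges of both genes overlapped between the classes.

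Single arrays show where the low values lay. Epcam was under 8 in 6 of 20 collagen-rich arrays, at 7.70 and 5.58 in transplants 4 and 5 of series 32, at 6.52, 5.83 and 5.31 in transplants 3 to 5 of series 34, and at 5.31 in transplant 1 of series 42. The other 14 collagen-rich arrays held Epcam between 9.17 and 11.51 with a median of 10.93. All 14 thus lay below the collagen-poor median of 11.53, most by far less than the 6 low arrays. All 6 arrays of series 42 were under 8, and they comprise 1 collagen-rich, 4 middle and 1 collagen-poor tumor. High collagen scores thus occurred with Epcam present, as in series 17 transplant 4 (score 12.81, Epcam 10.79) and series 10 primary (score 13.01, Epcam 10.89). They also occurred with Epcam near the floor.

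Most of the epithelial calls rested on these lines. With series 32 left out, 8 luminal and 4 junction genes were lower, and Epcam was not called (-1.15; limma, adjusted p = 0.0555). Without series 32, 34 and 42, which leaves 47 arrays with 13 collagen-rich and 17 collagen-poor ones, 3 luminal genes were lower. No gene of the junction list or the basal list was lower, and the medians of the luminal, junction and basal lists were -0.41, -0.31 and -0.20. Epcam then differed by -0.43 (limma, adjusted p = 0.0948) and Krt18 by -0.73 (limma, adjusted p = 0.0933). In the same 47 arrays 8 of 9 stromal collagens, 17 of 26 matrix genes and 7 of 13 endothelial genes were higher. These counts stand against 379 higher and 147 lower among all 7805 genes in the 47 arrays. With series 32 alone left out, 428 of all 7805 genes were lower.

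**Figure D5:**
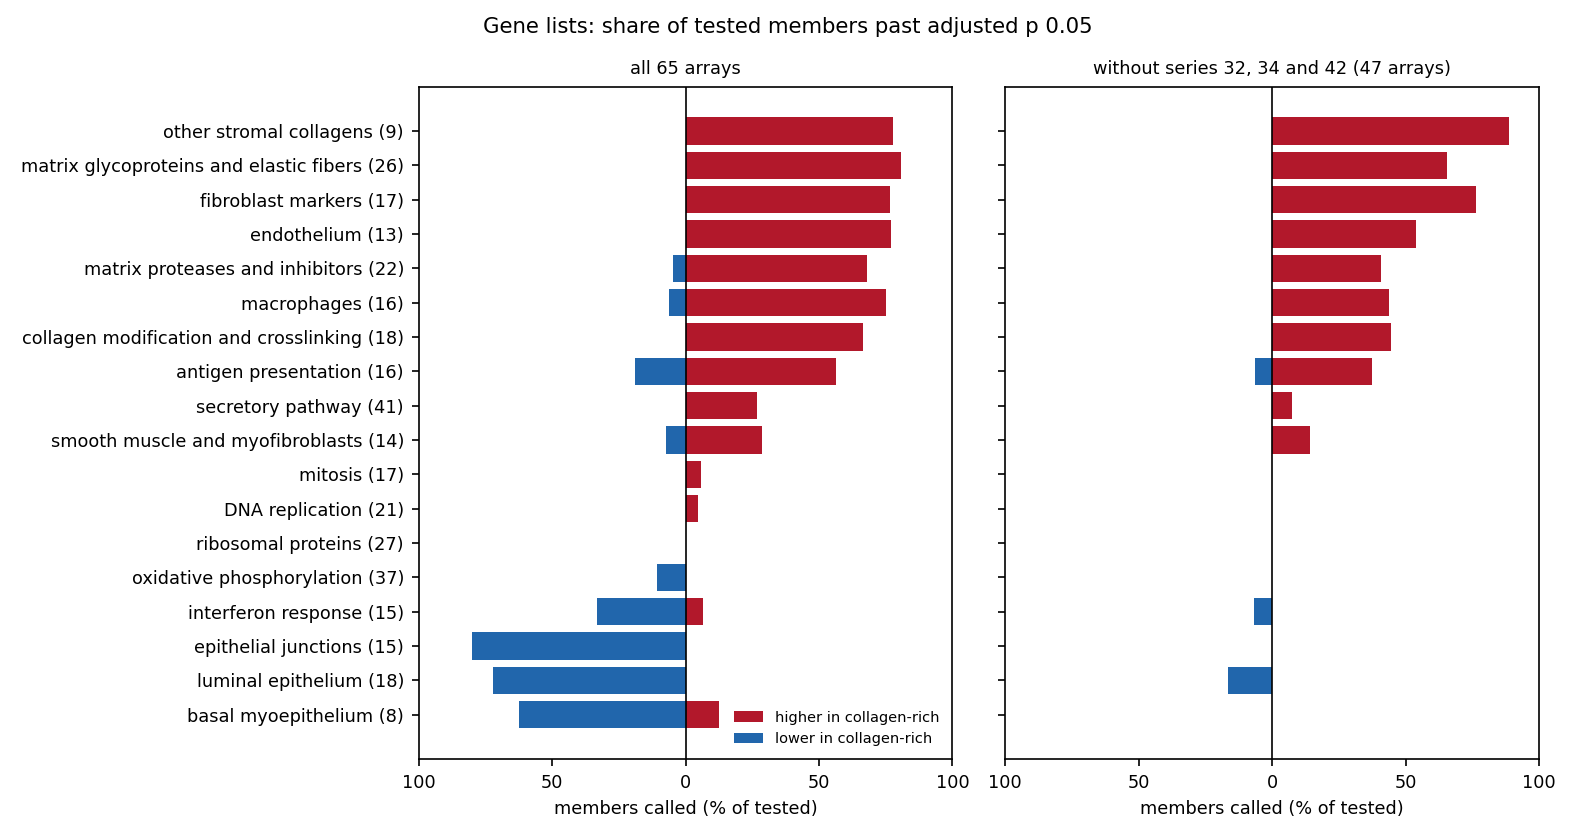
Share of tested members called higher (red, to the right) or lower (blue, to the left) in collagen-rich tumors for 18 gene lists, in percent, with the number tested in parentheses, on all 65 arrays and on the 47 arrays outside series 32, 34 and 42. Stromal lists stay on the right in both panels, while junction and basal lists have no called member in the second panel.

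The other large falls differed in how far they rested on series 32, 34 and 42. The 12 largest falls that agreed in at least 5 of 6 series held Krt8 at -2.01 and S100a14, an epithelial calcium-binding protein, at -2.01. They also held Sox10, a transcription factor of myoepithelial and neural crest cells, at -1.87 and Krt5, a basal keratin, at -1.77. Rph3al, an exocytosis protein, at -1.75 and Cldn4, a tight junction protein, at -1.67 were among them. So were the caseins Csn3 at -1.88 and Csn1s1 at -1.73. The keratin Krt19 at -2.31 and the milk gene Lalba at -1.95 were also called but lay outside that rule. For Krt5 the medians of the classes differed little, 11.39 against 11.08, since the fall lay in a few arrays. Without series 32, 34 and 42 Krt8 was at -0.50 and Krt5 at -0.40, and neither was called. Krt19 was still called there, at -0.88 (limma, adjusted p = 0.0329). Sox10 was at -1.28 and S100a14 at -0.83, without a call (limma, adjusted p = 0.0814 and 0.0649), whereas Rph3al at -0.99 and Cldn4 at -0.71 were still called (limma, adjusted p = 0.0311 and 0.0489). Cldn4 is not a member of the junction list, whose lowest difference on all arrays was -1.59. Csn3 was at -1.03 (limma, adjusted p = 0.172), and Csn1s1 kept its size at -1.75 but not its call (limma, adjusted p = 0.0715). Fhip2b, a protein of an endosome transport complex, ranged from 7.92 to 9.0 (median 8.29) in collagen-poor and from 5.31 to 8.15 (median 7.21) in collagen-rich arrays. It was lower in 6 of 6 series by 3.17-fold (-1.66 ± 0.24, SE; limma, adjusted p = 4.22e-07), and it differed by -1.63 without series 32, 34 and 42. With 1 value per series Fhip2b was called, and the other 11 of the 12 were not.

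The 250 bases upstream of annotated starts (RefSeq, GRCr8) were searched for 5 motifs on both strands, among them an E-box that factors of the Snai1 family bind. That E-box, CACCTG, occurred in 15.6% of 27457 promoters and in 14.5% of those of tested genes, 21.0% of those of genes called lower and 11.4% of those of genes called higher. Promoters were found for 15 of 18 luminal genes, and 10 of these held it, and for 10 of 15 junction genes, of which 7 held it. It was in 2 of 18 promoters of matrix genes and 1 of 12 of fibroblast markers. The other motifs, in the order all promoters, called higher and called lower, occurred in 34.3%, 34.3% and 37.5% (CCAAT), in 13.1%, 7.82% and 5.61% (TATAAA), in 32.4%, 63.4% and 61.4% (GGGCGG) and in 3.98%, 3.61% and 3.63% (TGACTCA). Promoters of tested genes held these motifs in 35.8% (CCAAT), 6.99% (TATAAA), 60.2% (GGGCGG) and 3.30% (TGACTCA). The shares of called genes are to be read against those of tested genes. Overlaps between motifs were not removed. A match is a description of letters, and the part of base composition was not tested.

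A pair of genes that fell and a pair that rose are shown, chosen after their matches were known, with the E-box in capitals on either strand, where CAGGTG is the same motif read from the other strand. Epcam (chr6:12649679-12649928, minus strand) has 1 match and Cldn7, a tight junction protein that differed by -1.30 (chr10:55188420-55188669, plus strand), has 4. Dpt (chr13:79656091-79656340, plus strand) and Col6a1 (chr20:11905440-11905689, plus strand) have none in this window. Each runs 5′ to 3′ and ends just before the annotated start.
Epcam: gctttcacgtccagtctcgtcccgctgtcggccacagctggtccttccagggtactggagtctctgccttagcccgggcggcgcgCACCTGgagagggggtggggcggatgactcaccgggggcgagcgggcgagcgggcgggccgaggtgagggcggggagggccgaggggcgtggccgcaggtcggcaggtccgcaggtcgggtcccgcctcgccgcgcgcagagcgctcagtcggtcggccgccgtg
Cldn7: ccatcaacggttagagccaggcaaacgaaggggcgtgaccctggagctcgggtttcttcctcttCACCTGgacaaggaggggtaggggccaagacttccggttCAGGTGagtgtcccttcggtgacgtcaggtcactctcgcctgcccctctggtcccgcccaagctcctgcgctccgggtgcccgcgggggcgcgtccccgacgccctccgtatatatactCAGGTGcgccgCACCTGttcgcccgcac
Dpt: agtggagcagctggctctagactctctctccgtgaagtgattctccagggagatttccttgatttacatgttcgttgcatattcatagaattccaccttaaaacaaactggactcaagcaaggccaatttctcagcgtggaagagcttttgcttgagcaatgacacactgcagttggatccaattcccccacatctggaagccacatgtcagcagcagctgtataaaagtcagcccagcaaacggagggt
Col6a1: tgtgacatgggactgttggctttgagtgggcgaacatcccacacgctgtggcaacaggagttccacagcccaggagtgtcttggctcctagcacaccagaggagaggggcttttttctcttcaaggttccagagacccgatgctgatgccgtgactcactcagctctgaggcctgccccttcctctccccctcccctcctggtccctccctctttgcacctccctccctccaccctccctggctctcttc

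Cell division and housekeeping lists did not separate the classes. Of 17 mitosis genes 1 was higher (Aurka, a spindle kinase, 0.40) and none lower, and of 21 replication genes 1 was higher (Gins1, 0.31) and none lower, and neither call was made without series 32. Mki67, the usual marker of cycling cells, had medians of 7.61 and 7.95 and was not called (0.01 ± 0.23, SE; limma, adjusted p = 0.979). None of 27 ribosomal protein genes was called, with a median of -0.02. Of 37 oxidative phosphorylation genes 4 were lower, and of 27 hypoxia and glycolysis genes 2 were lower. These shares lie below the 27.3% of all genes called. In the 25 middle arrays 0 of 17 mitosis and 0 of 21 replication genes had a positive slope on the score (medians -0.90 and -0.59). The counts were 4 of 27 for hypoxia and glycolysis, 12 of 27 for ribosomal proteins and 28 of 37 for oxidative phosphorylation. No slope was called, and 51.2% of all genes had a positive one.

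Fat genes moved in part, with 2 of 6 tested genes higher. Cfd, the complement factor that adipocytes secrete, ranged from 5.31 to 7.44 (median 5.89) and from 5.55 to 11.50 (median 7.98), a difference of 2.64 ± 0.47 (SE; limma, adjusted p = 2.46e-05). Lpl, lipoprotein lipase, differed by 1.20, and Scd, a desaturase, was at -0.03. The mean over all 15 measured fat genes, tested or not, ran from 5.86 to 6.63 in collagen-poor and from 6.21 to 8.10 in collagen-rich arrays. Its part in the results was not tested. The milk list had 4 of 11 genes lower, with a median of -0.58. Without series 32, 34 and 42 none was called, but the median was -0.55, and Lalba, alpha-lactalbumin, was at -1.58 against -1.95 on all arrays.

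In the 25 middle arrays, which the classes left out, each gene's slope on the score was fitted within series. No gene passed (0%; limma, smallest adjusted p = 0.122), and 874 had an unadjusted p under 0.05. The scores there span only 10.96 to 11.93. Of the 1035 genes called higher between the classes, 702 (67.8%) had a positive slope in these arrays, against 51.2% of all genes. Of the 1093 called lower, 449 (41.1%) had a negative slope, a smaller share than the 48.8% of all genes.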

How the data were processed

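Total RNA (6 µg per tumor) from frozen rat mammary tumors was labelled as biotinylated cRNA and hybridised to 1 Affymetrix array per tumor, per the labels' protocols. The authors deposited probe set intensity values on a linear scale, from 1 to 12011. Their summarisation and normalization are not given in the sources used here, and no detection call was used. All 65 arrays were brought to 1 median (162) across 15866 non-control probe sets, floored at the pooled 10th percentile (39.8) and log2 transformed. The probe set with the highest mean stood for each of 10411 genes. Genes in the lowest 25% by mean were left out, and 7805 were tested with limma 3.58.1 (R 4.3.3; lmFit, eBayes), tested on simulated data. Of the probe sets 12783 had 1 gene symbol, 312 several and 2771 none.

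Series entered as a replicate block because the design text describes lines from 1 first tumor. Deviations from generation means correlated at 0.38 within and -0.04 between series. Members, classes and gene lists were chosen with earlier results of these data known. Named genes were up to 12 with the largest rise and 12 with the largest fall agreeing in at least 5 of 6 series, per list up to 6 called genes with the smallest adjusted p and up to 2 others with the highest mean, and the 10 most like the score. Genes of a list outside this rule were named after their values were seen. The number of arrays sets the precision. Alternatives covered scaling, floor, filter, class size, covariates, blocks and left-out series.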

Additional observations from a re-analysis of the deposited data

How the results depend on the processing

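The class comparison gave 2128 genes and was repeated under 33 alternatives, of which 26 stayed within 1.5 times that count, between 1502 and 2448 where all series were kept. Without the replicate block 2353 genes were called, and 2374 with series as a random replicate block. The count moved further with generation beside the replicate block (1387), with only the 40 arrays of both classes (1139), with only the series that hold both classes (1317), with 1 value per series that holds both classes (185), with 1 mean per series and class (283) and without series 32, 34 and 42 (526), the last 4 of these chosen after seeing the data. Fewer values entered each of these fits except the first. Leaving out 1 series at a time gave 1007 (without series 32) to 2734 (without series 25L). Of the 2128 genes, 967 were called without series 32. Of 216 genes named by the rule 149 were called and none changed sign while called. Of these 149, 20 lost the call with generation in the fit, 35 without series 32 and 62 without series 32, 34 and 42. With 1 value per series that holds both classes 86 of the 149 lost the call. Among the 24 genes named by size, Col2a1 and Csn3 lost it with generation, and Krt5, Epcam and Col2a1 without series 32. Krt5 also lost it without the replicate block. The slope in middle arrays gave 0 genes without the block, with quantile normalization and with no filter. Signal limits the dim genes, whose values at the floor have no order.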
